A study of Mus musculus with 12 samples.

Results

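The genes described here are 10 genes linked to feedback in the ERK pathway. They comprise the dual-specificity phosphatases Dusp1, Dusp4, Dusp5 and Dusp6, and the Sprouty genes Spry1, Spry2 and Spry4. The others are the Sprouty-related genes Spred1 and Spred2, and the immediate early gene Ier3. All 10 are called feedback genes below for short, and Ier3 is not taken as an inhibitor of the cascade. Their probe sets were chosen by gene symbol, as every probe set whose only symbol in the platform's probe-to-gene table was 1 of these 10 names. That gave 25 probe sets of the 45037 tested and 10 genes of the 18193 measured. Dusp1, Dusp4, Dusp5, Dusp6, Spry1 and Ier3 had 1 probe set each, Spry2 had 2, Spry4 had 4, Spred2 had 5 and Spred1 had 8. No filter on low values was used, and 18 of the 25 lay at or above the median level of all probe sets over the 12 arrays.

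In the ERK cascade, growth factor receptors activate RAS, which activates RAF, MEK and finally the kinase ERK. Active ERK is known to induce genes that switch the cascade off again: DUSP proteins remove the activating phosphates from ERK and related kinases, while Sprouty and Spred proteins act upstream, near the receptor, RAS and RAF. Because their mRNAs are short-lived and follow ERK output closely, DUSP6, SPRY2 and SPRY4 are widely used as transcript readouts of the pathway. The kinase mTOR, the target of rapamycin, belongs to a neighbouring growth factor pathway, and TSC2 is the brake on it that these cells lack according to their labelled genotype. ERK phosphorylation and protein levels were not analysed here.

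All 12 samples were cultures of TSC2-/- mouse embryonic fibroblasts (MEFs) grown in DMEM with 10% CCS, in 4 groups of 3 arrays. The design text of the series speaks of biological triplicates. Rapamycin cultures received 20 nM of the drug for 14 h, and vehicle cultures received DMSO for 14 h. PGC-1alpha cultures were infected at confluence for 10 h with an adenovirus carrying PGC-1alpha, a coactivator of mitochondrial genes, and GFP cultures with an adenovirus carrying green fluorescent protein, and both were harvested 14 h after the medium was changed. No TSC2-proficient cells entered either comparison, so every difference below is within a TSC2-null background. The labels do not name separate lines, clones or embryos, so the p-values measure the spread between these cultures.

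Every value is an intensity from an Affymetrix MOE430 v2 array, normalised by the authors with RMA separately for the rapamycin experiment and the adenovirus experiment. Array medians lay between 77.5 and 81.0, and levels were compared only within an experiment and only within a probe set. Of 10 fibroblast markers 9 lay at or above the array median in all groups. So did 3 of 6 macrophage, 1 of 5 endothelial and 3 or 4 of 5 epithelial markers, so this count separates the lists only in part. By group mean, the brightest fibroblast marker read 11060 to 13810, and the brightest marker of the other lists at most 771. The Tsc2 probe set read 182, 217 and 196 in rapamycin cells, against 248, 259 and 278 in vehicle cells (log2 change -0.40, limma adjusted p = 0.00079), and 237, 233 and 257 in PGC-1alpha cells, against 203, 219 and 252 in GFP cells (0.11, adjusted p = 0.68). All 12 values lay above the array medians, and whether that probe set lies in the deleted part of the gene was not tested, so it does not check the genotype. Ppargc1a was higher in PGC-1alpha than in GFP cells by 4.74 on the log2 scale (limma, adjusted p = 3.6e-11). A change was called where the limma p, adjusted by Benjamini-Hochberg over all 45037 probe sets, was under 0.05, and errors on log2 changes are moderated standard errors (SE). In whole cultures, a lower level in every cell cannot be told apart from fewer cells that make the transcript.

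The promoters of 4 of these genes are shown, those of Dusp6 and Spry2, which changed most, and of Dusp1 and Dusp5, which did not pass the test. RefSeq (GRCm38.p6) gave a window for 8 of the 10 genes, covering 250 bases before and 50 bases after the annotated start. The windows were searched on both strands for the ETS core GGAAG, which ERK-regulated ETS factors bind, for the full cyclic AMP response element TGACGTCA, and for the CArG box, the site of serum response factor. These motifs were chosen after the windows had been viewed. Capitals mark the ETS core in Dusp6 and Spry2, the cyclic AMP response element in Dusp1 and 2 adjacent CArG boxes in Dusp5.
Dusp6 promoter, chr10:99262981-99263280, plus strand: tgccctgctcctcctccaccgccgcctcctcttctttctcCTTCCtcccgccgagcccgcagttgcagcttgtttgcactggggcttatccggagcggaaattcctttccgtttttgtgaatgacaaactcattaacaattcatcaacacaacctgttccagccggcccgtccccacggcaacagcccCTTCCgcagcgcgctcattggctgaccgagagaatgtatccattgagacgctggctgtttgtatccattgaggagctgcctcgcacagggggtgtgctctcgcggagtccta
Spry2 promoter, chr14:105896770-105897069, minus strand: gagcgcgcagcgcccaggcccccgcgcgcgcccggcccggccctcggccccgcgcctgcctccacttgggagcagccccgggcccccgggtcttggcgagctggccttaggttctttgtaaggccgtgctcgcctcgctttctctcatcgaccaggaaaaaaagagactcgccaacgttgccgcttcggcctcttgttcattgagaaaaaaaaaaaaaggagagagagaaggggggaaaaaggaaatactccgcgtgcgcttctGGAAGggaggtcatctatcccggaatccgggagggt
Dusp1 promoter, chr17:26508423-26508722, minus strand: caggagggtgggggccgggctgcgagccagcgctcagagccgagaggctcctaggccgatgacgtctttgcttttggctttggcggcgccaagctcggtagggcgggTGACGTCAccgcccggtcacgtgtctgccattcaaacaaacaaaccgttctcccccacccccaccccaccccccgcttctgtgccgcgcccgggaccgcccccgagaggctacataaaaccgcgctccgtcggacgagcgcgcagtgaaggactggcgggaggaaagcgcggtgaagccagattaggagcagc
Dusp5 promoter, chr19:53528895-53529194, plus strand: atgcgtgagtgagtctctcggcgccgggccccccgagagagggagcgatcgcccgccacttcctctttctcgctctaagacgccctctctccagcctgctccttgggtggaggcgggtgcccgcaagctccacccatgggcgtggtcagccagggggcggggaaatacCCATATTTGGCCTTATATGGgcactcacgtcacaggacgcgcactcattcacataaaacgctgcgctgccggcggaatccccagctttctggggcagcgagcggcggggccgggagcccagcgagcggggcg

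The Dusp6 window held the ETS core at -210 and -62, both on the opposite strand, and the Spry2 window held it at 14, counted from the annotated start as 0. The ETS core was in 6 of the 8 windows, but it was also in 71.4% of the 32851 RefSeq promoter windows of that length, so its presence separates these genes little from others. The Dusp5 window held the ETS core once as well, not marked above, so the element does not part the changed from the unchanged genes shown. The cyclic AMP response element at -143 in Dusp1 and the CArG boxes at -82 and -72 in Dusp5 were in 1 of the 8 windows each, against 1.79% and 1.63% of all windows. No 2 matches overlapped. These are matches of letters in a window and no measurement of binding.

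The first comparison asked how these genes stood after mTOR was inhibited. Rapamycin raised 8 of the 25 probe sets and lowered 0, against 11.5% of all 45037 probe sets raised and 14.0% lowered. Dusp6 and Spry2 rose most, each by about 1.4-fold. Dusp4, Ier3 and 4 dimmer probe sets of Spred1 rose by less, between 0.22 and 0.28 on the log2 scale. With each gene represented by its brightest probe set, 4 of 10 rose and 0 fell, against 11.3% and 18.0% of all 18193 genes. At an unadjusted p under 0.05 in limma, 13 probe sets were higher and 1 was lower in rapamycin cells. The share of all probe sets past that cut was not counted, so these counts are not read as a result about the genes. The median log2 change was 0.12 over the 25 probe sets and 0.15 over the 10 genes, against -0.00 and -0.01 over all probe sets and genes.

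Dusp6 encodes the cytoplasmic phosphatase that acts most selectively on ERK. Its intensity was 923, 1006 and 955 in the 3 rapamycin cultures, against 740, 694 and 642 in the vehicle cultures. Every rapamycin culture lay above every vehicle culture, with means of 961 ± 41.9 and 692 ± 49.0 (SD, n = 3 each). The log2 change was 0.48 (SE 0.06, 95% interval 0.34 to 0.61, limma adjusted p = 8.8e-05), and 2.15% of all probe sets rose as much or more.

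Spry2 encodes a Sprouty protein that restrains signalling between receptor tyrosine kinases and ERK. Its brighter probe set, 1436584_at, read 1084, 1210 and 1213 in rapamycin cells, against 854, 826 and 810 in vehicle cells. The groups did not overlap, and their means were 1169 ± 73.3 and 830 ± 22.2 (SD, n = 3 each). The log2 change was 0.49 (SE 0.06, 95% interval 0.36 to 0.62, limma adjusted p = 4.1e-05), a rise matched or exceeded by 1.98% of all probe sets. The dimmer Spry2 probe set, 1421656_at, gave 81.6, 74.3 and 85.7 in rapamycin cells and 75.5, 78.8 and 75.3 in vehicle cells. It did not pass the test (log2 change 0.07, 95% interval -0.06 to 0.20, adjusted p = 0.48), so the 2 probe sets of Spry2 gave different answers.

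The other phosphatases moved less. Dusp4, a nuclear phosphatase that acts on ERK and on the stress kinases JNK and p38, read 601, 680 and 651 in rapamycin cells, against 598, 543 and 488 in vehicle cells. The lowest rapamycin culture lay only just above the highest vehicle culture, and the log2 change was 0.25 (SE 0.07, limma adjusted p = 0.026). This call was lost without rapamycin replicate 2 or 3 and without vehicle replicate 2 or 3, with values between 0.17 and 0.32 over the 6 fits that each left out 1 culture.

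Dusp1, a nuclear phosphatase best known for acting on p38 and JNK, read 371, 431 and 450 in rapamycin cells, against 367, 379 and 376 in vehicle cells. The groups overlapped through rapamycin replicate 1, and the log2 change of 0.15 (SE 0.07) did not pass (adjusted p = 0.14). Without that culture it was 0.24 with an adjusted p of 0.012. Dusp5, the nuclear phosphatase that is selective for ERK, read 369, 399 and 352 in rapamycin cells and 377, 357 and 366 in vehicle cells. Its log2 change was 0.02 with a 95% interval of -0.10 to 0.15, so a rise as large as that of Dusp6 lies outside its interval.

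Ier3 encodes a short-lived immediate early protein that ERK phosphorylates and that is known for effects on cell survival. It read 2140, 2396 and 2210 in rapamycin cells, against 1951, 1941 and 1861 in vehicle cells. All rapamycin cultures lay above all vehicle cultures, and the log2 change was 0.23 (SE 0.06, 95% interval 0.10 to 0.35, limma adjusted p = 0.01). The call held in all 6 fits that left out 1 culture, with values of 0.18 to 0.26.

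**Figure D1:**
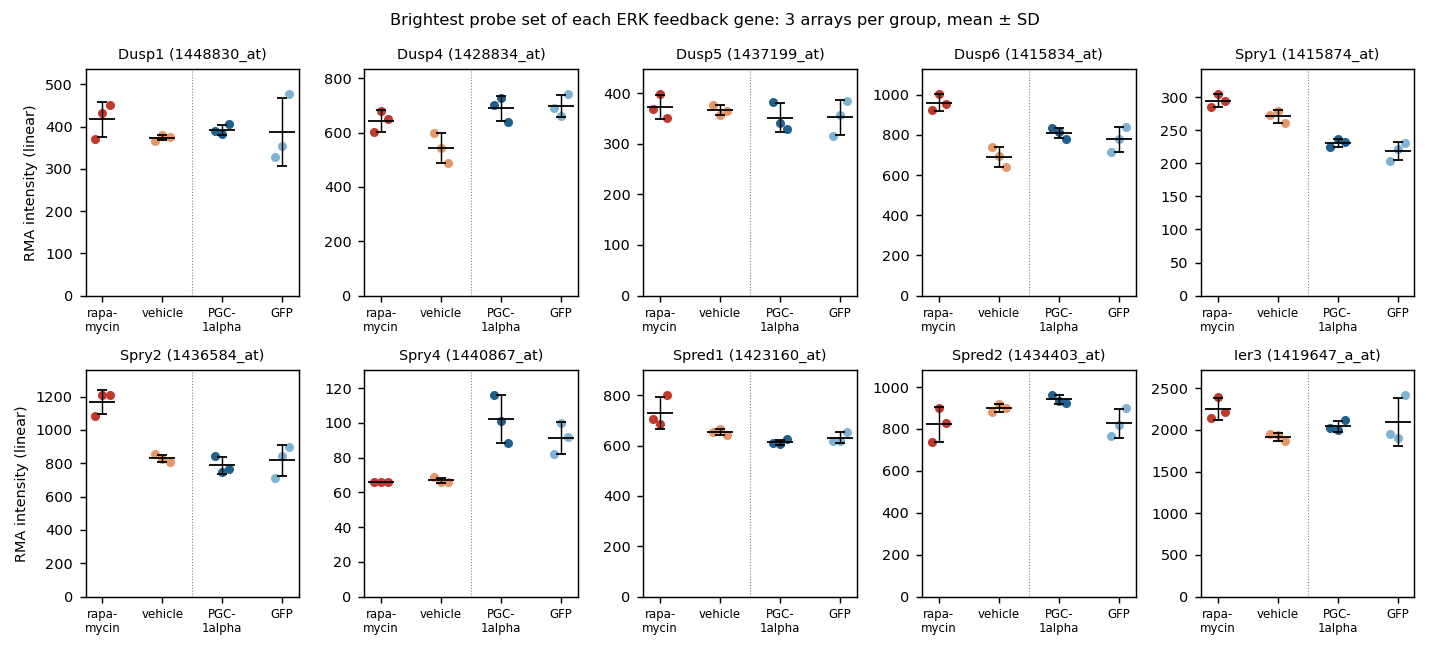
Intensity (linear RMA values, axis from 0) of the brightest probe set of each of the 10 genes, with a point per array and the mean and SD of the 3 arrays in black, for rapamycin, vehicle, PGC-1alpha and GFP cells; the dotted line parts the 2 separately normalised experiments. The rapamycin points of Dusp4, Dusp6, Spry1, Spry2, Spred1 and Ier3 all lie above the vehicle points, while the PGC-1alpha and GFP points overlap for 9 of the 10 genes, Spred2 being the exception.

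The remaining Sprouty genes did not follow Spry2. Spry1 read 285, 306 and 295 in rapamycin cells and 274, 279 and 261 in vehicle cells. Its cultures did not overlap, yet the log2 change of 0.12 (SE 0.06) missed the threshold (adjusted p = 0.14). Spry4, an inhibitor of the same step that is often read beside DUSP6, gave 66.1, 65.9 and 66.0 in rapamycin cells and 68.7, 66.0 and 66.1 in vehicle cells with its brightest probe set. Its 4 probe sets changed by -0.11 to 0.04 on the log2 scale, none passed the test and all overlapped between groups. The 95% interval of the brightest ran from -0.13 to 0.09. Its 4 probe sets lay between the 7.3 and 50.3 percentiles of level among all probe sets, and no detection calls were used, so a level near background cannot be told from a low level.

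Spred1 and Spred2 encode membrane proteins that bring the RAS inhibitor neurofibromin to the membrane, and their probe sets disagreed among themselves. For Spred1, 4 of 8 probe sets rose, and all 8 log2 changes lay between 0.03 and 0.28. The brightest, 1423160_at, read 703, 684 and 803 in rapamycin cells, against 656, 665 and 641 in vehicle cells, without overlap (log2 change 0.15, adjusted p = 0.11). The 4 that passed were among the dimmer ones. Probe set 1423162_s_at, for example, read 104, 114 and 110 in rapamycin cells, against 86.4, 99.1 and 85.8 in vehicle cells (log2 change 0.28, SE 0.07, adjusted p = 0.0068). With the log2 values of all 8 averaged, Spred1 rose by 0.18 (SE 0.042, limma adjusted p = 0.0059 over 18193 genes), so its call depends on the rule for combining probe sets.

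The 8 Spred1 probe sets are not independent measurements. Groups of 3, 2 and 2 of them were each listed with the same source sequence, and 4 carry the suffix _s_at or _x_at, which Affymetrix gives to probes shared between transcripts. The pair 1443652_x_at and 1460116_s_at, listed with the same sequence, gave log2 changes of 0.03 and 0.28.

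No Spred2 probe set passed the test with rapamycin. The brightest, 1434403_at, read 736, 902 and 830 in rapamycin cells, against 883, 920 and 899 in vehicle cells (log2 change -0.14, adjusted p = 0.2). Its groups overlapped through rapamycin replicate 2, without which the log2 change was -0.20 (adjusted p = 0.038). The Spred2 probe sets pointed both ways: 1441415_at lay higher in every rapamycin culture than in any vehicle culture (0.16, adjusted p = 0.076) and 1441802_at lay lower in every one (-0.16, adjusted p = 0.066). Averaged over its 5 probe sets, Spred2 changed by -0.02 (SE 0.042).

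**Figure D2:**
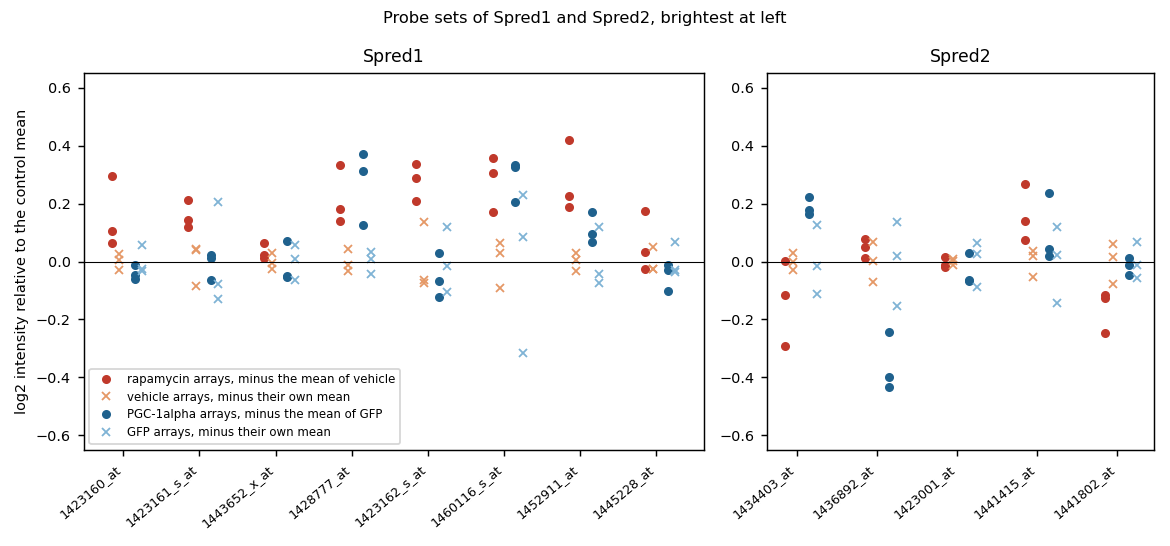
Log2 intensity of each array for the 8 probe sets of Spred1 and the 5 of Spred2, ordered from bright to dim, relative to the mean of the matching vehicle or GFP arrays; filled points are rapamycin and PGC-1alpha arrays, crosses are vehicle and GFP arrays. The mean of the rapamycin points lies above 0 in all 8 Spred1 probe sets, whereas the Spred2 probe sets spread to both sides of 0, and the 3 PGC-1alpha points of 1436892_at all lie below the GFP points.

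Counted by overlap alone, 12 of the 25 probe sets had all 3 rapamycin cultures above all 3 vehicle cultures, against 18.0% of all probe sets, and 1 had them all below, against 19.9%. Among the cultures themselves, rapamycin replicate 1 was the lowest of its group by brightest probe set for Dusp1, Dusp4, Dusp6, Spry1, Spry2, Spred2 and Ier3. How often that culture was the lowest over all probe sets was not counted.

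The size of these rises depended on how the arrays were scaled. The main values rest on quantile normalisation, which gives the arrays of an experiment nearly the same distribution. As an alternative, and no measure of RNA per cell, normalised values were also scaled by 9 probe sets for bacterial and phage control transcripts. Their mean log2 intensity was 10.87, 11.08 and 10.96 in rapamycin cells, and 10.86, 10.78 and 10.79 in vehicle cells, so it varied within groups too. With that mean made equal in all arrays, the median of all probe sets shifted by -0.16 for rapamycin against vehicle. Dusp6 was then 0.32 (adjusted p = 0.0044) and Spry2 0.33 (adjusted p = 0.0026), both still called, while Dusp4 was 0.09 (adjusted p = 0.37) and Ier3 0.07 (adjusted p = 0.45). On that scale 2 of 25 member probe sets were raised, against 3.67% of all, and 3 were lowered, against 30.8% of all. Of the 10 genes 2 were raised, against 3.83% of all genes, and 1, Spred2, was lowered, against 35.8%. The lowered probe sets were 1434403_at (-0.29) and 1441802_at (-0.32) of Spred2 and 1422020_at of Spry4 (-0.27). The member median was -0.04, against -0.16 for all probe sets. With quantile normalisation over all 12 arrays, the changes of Dusp6 and Spry2 were both 0.57, 12 member probe sets were raised and 1 was lowered, against 13.3% and 13.2% of all. Dusp1, Spry1 and the brightest probe set of Spred1 then passed as well, so 7 of the 10 genes were raised, against 14.6% of all genes.

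**Figure D3:**
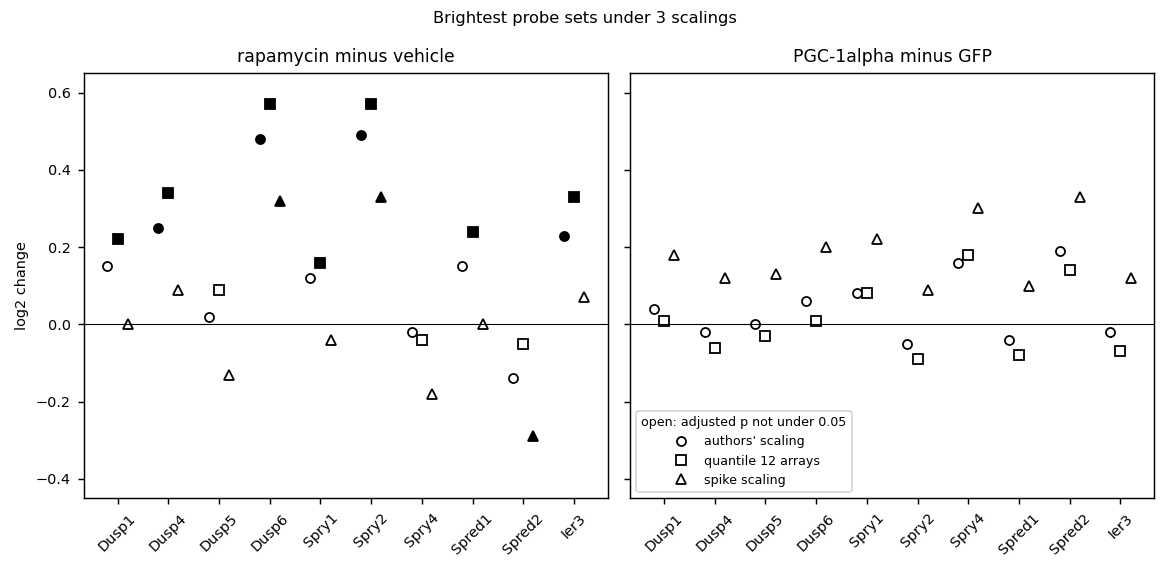
Log2 change of the brightest probe set of each gene under the authors' scaling (circles), quantile normalisation over 12 arrays (squares) and equal control transcripts (triangles), for rapamycin minus vehicle at left and PGC-1alpha minus GFP at right; filled symbols have an adjusted p under 0.05. Dusp6 and Spry2 are filled under all 3 scalings for rapamycin, and no symbol is filled for PGC-1alpha.

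Levels of other cell types' markers also differed between rapamycin and vehicle cells. Of 5 epithelial markers 2 rose, and their summed intensity was 1490 to 1546 in rapamycin cells, against 1233 to 1301 in vehicle cells. Of 6 macrophage markers 2 rose, with sums of 791 to 816 in rapamycin cells, against 731 to 759 in vehicle cells. Of 10 fibroblast markers 4 rose, with sums of 60420 to 64490 in rapamycin cells, against 57780 to 59520 in vehicle cells. Of 5 endothelial markers 0 passed the test, with sums of 307 to 324 in rapamycin cells and 294 to 318 in vehicle cells. Over all genes 11.3% rose and 18.0% fell. On the scale of equal control transcripts, 1 of the epithelial markers was raised, and 0 of the macrophage markers were raised and 1 was lowered. There 1 of the fibroblast markers was raised and 2 were lowered, and 1 of the endothelial markers was lowered. Of all genes 3.83% were raised and 35.8% lowered on that scale. The part of these marker differences in the feedback genes' changes was not tested.

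The wider pathway was described with lists of related genes. Of 24 cascade genes from receptors to ERK, 19 were measured here, and 3 rose, 3 fell and 13 did not pass, with a median log2 change of 0.05, against 11.3% raised and 18.0% lowered of all genes. On the scale of equal control transcripts 2 were raised and 6 lowered, with a median of -0.11, against 3.83% and 35.8% of all genes. The platelet-derived growth factor receptors Pdgfrb (0.67, limma adjusted p = 2e-06) and Pdgfra (0.50) rose with the RAS exchange factor Sos2 (0.29), whose call was lost with equal control transcripts (0.13, adjusted p = 0.19). The MEK genes Map2k2 (-0.36) and Map2k1 (-0.34) fell, as did Ptpn11 (-0.21), which encodes the phosphatase SHP2 that helps receptors activate RAS.

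Transcripts that ERK is known to induce were split. Of 21 measured, 7 rose and 6 fell with rapamycin, with a median of -0.01, against 11.3% and 18.0% of all genes. The transcription factor genes Egr1 (0.48, limma adjusted p = 7.8e-05), Junb (0.46) and Fosl2 (0.37) rose by amounts near those of Dusp6 and Spry2. Fosl1 (-0.92), Jun (-0.51) and the cell cycle gene Ccnd1 (-0.47) fell. Fosl1, whose product FRA-1 is stabilised by ERK, read 192, 159 and 149 in rapamycin cells, against 325, 313 and 300 in vehicle cells, without overlap. Etv5, an ETS factor gene named here after its value was seen, rose by 0.33 (adjusted p = 0.0094), a call lost with equal control transcripts (0.17, adjusted p = 0.11).

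Other phosphatase and feedback genes were split too, with a median of 0.01. Of 16 such genes 3 were raised and 5 lowered, against 11.3% and 18.0% of all genes. Dusp14 fell most (-0.80), followed by Spry3 (-0.42), Lrig1 (-0.31), which encodes a receptor inhibitor, and Dusp3 and Dusp16 (-0.28 each), while Spred3 rose (0.28). With equal control transcripts, 3 of the 21 ERK-induced transcripts were raised and 10 lowered, and 0 of these 16 genes were raised and 5 lowered. The shares of all genes on that scale were 3.83% raised and 35.8% lowered.

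**Figure D4:**
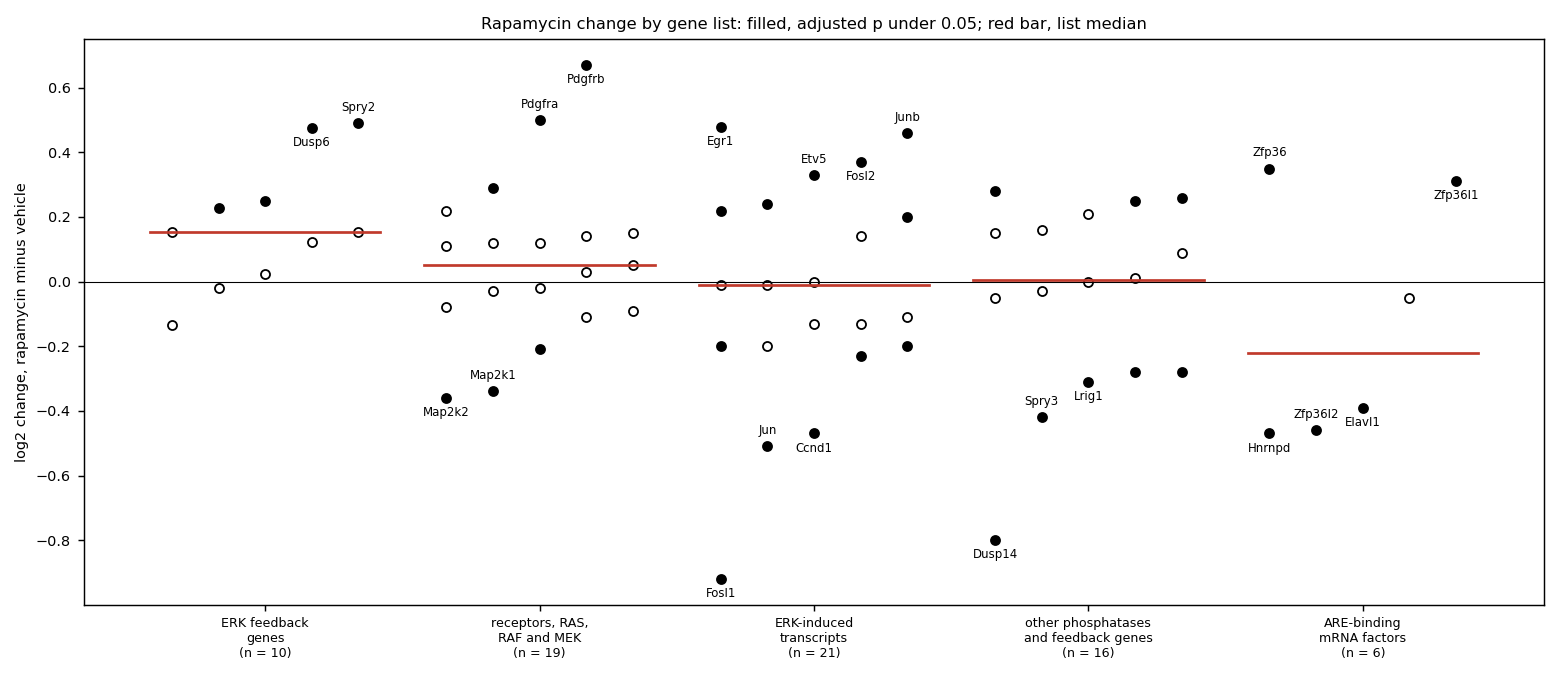
Log2 change (rapamycin minus vehicle) of each gene's brightest probe set for the 10 feedback genes and 4 lists of related genes, with called genes filled, the list median as a red bar and names at called changes of 0.3 or more in size. The medians are 0.15 for the feedback genes, 0.05 for the cascade, -0.01 for ERK-induced transcripts, 0.01 for other feedback genes and -0.22 for mRNA-binding factors.

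The genes most like Spry2 over the 12 arrays, by the root mean square difference of log2 values centred within each experiment, were Tmem53 (0.049), Fgf7 (0.052) and Plpp3 (0.054) among 18192 other genes. Those most like Dusp6 were 4930486L24Rik (0.042), Gpr176 (0.043) and Mfge8 (0.046). Dusp6 was the gene ranked 11 for Spry2, and Spry2 the gene ranked 38 for Dusp6, at a difference of 0.066. Among the feedback genes, Spred2 was the least like both, at 0.243 from Spry2 and 0.229 from Dusp6.

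The second comparison asked whether adenoviral PGC-1alpha moved the same genes, relative to adenoviral GFP. It raised 0 and lowered 1 of the 25 probe sets, against 0.997% of all probe sets raised and 0.955% lowered, and by brightest probe set it raised 0 and lowered 0 of the 10 genes, against 1.41% and 0.594% of all genes. At an unadjusted p under 0.05 in limma, the only test run on these values, 3 probe sets were higher and 1 was lower, and 1 gene was higher. Shares of all probe sets and genes past that cut were not counted here either, so these counts are not read as a result about the genes. The median log2 change was -0.00 over the 25 probe sets, the same as over all probe sets. PGC-1alpha cultures lay all above GFP cultures for 3 of the 25, against 7.76% of all probe sets, and all below for 1, against 7.91%.

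GFP replicate 3 stood apart from the other GFP cultures across the whole array. It was the highest or the lowest of the 3 in 79.4% of all probe sets and in 22 of these 25 (88.0%). It was the highest in 16 of the 25 (64.0%), against 39.0% of all, and the lowest in 6 (24.0%), against 40.4% of all. Some culture of a group must be the highest and another the lowest, and these shares were not counted for the other GFP cultures. The mean log2 intensity over the control transcripts was 10.91 in GFP replicate 3, against 10.67 and 10.70 in the other GFP cultures. In PGC-1alpha cultures it was 10.80, 10.55 and 10.51. Dusp1, for instance, read 389, 382 and 405 in PGC-1alpha cells, against 329, 354 and 478 in GFP cells. Ier3 read 2017, 2000 and 2120 in PGC-1alpha cells, against 1952, 1897 and 2424 in GFP cells, so for both genes the 3 PGC-1alpha values lay inside the range of the GFP values.

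Dusp6 read 833, 816 and 780 in PGC-1alpha cells and 713, 780 and 840 in GFP cells, an overlapping pair of groups. Its log2 change was 0.06 (SE 0.07, 95% interval -0.09 to 0.21, limma adjusted p = 0.85). Spry2 with 1436584_at read 845, 750 and 768 in PGC-1alpha cells and 713, 843 and 896 in GFP cells. That change was -0.05 (95% interval -0.23 to 0.13, adjusted p = 0.91), and both intervals leave out the change that the same probe set showed with rapamycin. Dusp4 (-0.02, 95% interval -0.17 to 0.13), Dusp5 (-0.00, -0.18 to 0.17), Spry1 (0.08, -0.06 to 0.22) and Ier3 (-0.02, -0.21 to 0.16) did not pass either.

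Spry4 read 116, 101 and 88.6 in PGC-1alpha cells and 82.0, 100 and 91.7 in GFP cells with its brightest probe set. The groups overlapped, and the log2 change of 0.16 had a 95% interval of -0.05 to 0.37 (adjusted p = 0.62).

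The called probe set was 1436892_at of Spred2, which read 194, 221 and 198 in PGC-1alpha cells, against 235, 265 and 288 in GFP cells. The groups did not overlap, with means of 204 ± 14.7 and 263 ± 26.5 (SD, n = 3 each). The log2 change was -0.36 (SE 0.08, 95% interval -0.53 to -0.18, limma adjusted p = 0.042). The brightest Spred2 probe set moved the other way without passing: 1434403_at read 964, 933 and 924 in PGC-1alpha cells, against 764, 817 and 901 in GFP cells (0.19, adjusted p = 0.25). The mean over the 5 Spred2 probe sets changed by -0.02 (SE 0.044), so 1 of the 5 Spred2 probe sets fell and the mean over them did not pass.

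That call was close to the threshold. It was kept in 2 of the 6 fits that left out 1 culture, and it was lost without PGC-1alpha replicate 1 (-0.32, adjusted p = 0.18), replicate 2 (-0.42, adjusted p = 0.058) or replicate 3 (-0.34, adjusted p = 0.19) and without GFP replicate 2 (-0.35, adjusted p = 0.17). It was lost with equal control transcripts as well (-0.22, adjusted p = 0.64), where 0 of the 25 were raised and 0 lowered, against 0.553% and 0.0844% of all probe sets.

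Leaving out GFP replicate 3 raised 3 member probe sets, against 4.35% of all probe sets in that fit. These were 1434403_at of Spred2 (0.25, adjusted p = 0.026) and 2 of Spred1, 1460116_s_at (0.40, adjusted p = 0.031) and 1428777_at (0.29, adjusted p = 0.04). Probe set 1428777_at read 187, 179 and 157 in PGC-1alpha cells, against 145, 140 and 148 in GFP cells, without overlap. Over all 6 arrays its log2 change was 0.27 (SE 0.07, adjusted p = 0.08). By brightest probe set, 1 of the 10 genes, Spred2, was raised without GFP replicate 3, against 6.60% of all genes. With a filter at the median level and all 6 arrays, 1 member probe set, 1428777_at, was raised, against 2.74% of those tested.

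**Figure D5:**
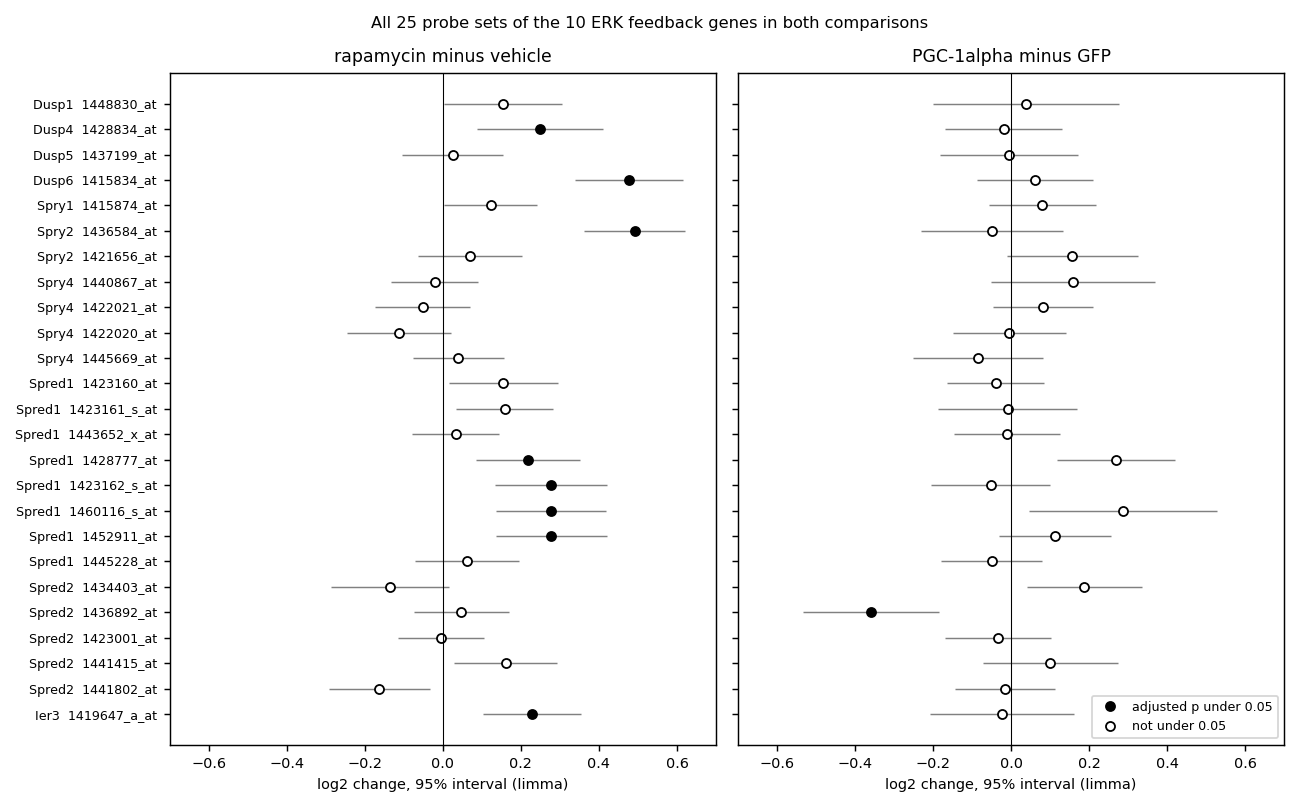
Log2 change with its 95% interval (limma) for all 25 probe sets, rapamycin minus vehicle at left and PGC-1alpha minus GFP at right, with called probe sets filled. At left 8 filled points lie above 0 and none below, and at right the single filled point is 1436892_at of Spred2 at -0.36.

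With PGC-1alpha, 2.01% of all genes were called in either direction, and each list of related genes had 0 or 1 called gene. Of 19 cascade genes, 1 rose and 0 fell, and the one that rose was Map2k2 (0.36, limma adjusted p = 0.022), which just missed the threshold with equal control transcripts (0.50, adjusted p = 0.05). Meanwhile 0 of 21 ERK-induced transcripts and 0 of the 16 other feedback genes passed the test in either direction. Of the 6 mRNA-binding factor genes, 1 fell, Zfp36l1, which is described at the end.

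The last test asked whether the effects of the 2 treatments on a probe set differed, as the rapamycin change minus the PGC-1alpha change in a limma fit of all 12 arrays. The difference passed above 0 for 4 of the 25 probe sets, against 8.70% of all, and below 0 for 1, against 12.0%. In either direction 5 of the 25 passed, close to the 20.7% of all probe sets. Spry2 (1436584_at) differed by 0.54 (SE 0.11, adjusted p = 0.00099) and Dusp6 by 0.42 (SE 0.10, adjusted p = 0.0034), and both held in all 12 fits that left out 1 culture. The differences of Dusp4, Ier3, Dusp1, Dusp5, Spry1 and Spry4 did not pass, so their effects are not shown to differ between treatments. With equal control transcripts the differences of Spry2 (0.24, adjusted p = 0.19) and Dusp6 (0.12, adjusted p = 0.51) did not pass, while the median difference of all probe sets was -0.29 on that scale. There 0 of the 25 passed above 0 and 4 below, against 1.14% and 24.3% of all, and with quantile normalisation over 12 arrays 7 passed above and 0 below, against 10.8% and 11.2%.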

How the data were processed

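RNA from 12 cultures was hybridised to Affymetrix MOE430 v2 arrays, after Trizol isolation and biotin labelling, per the labels' protocols. Each deposited value is the intensity of a probe set, which the authors made with RMA at default settings in BioConductor 1.2, with 1 batch per experiment, per the series design text. No source used here gives their scale. They run from 9.299 to 21072 and were read as linear, and log2 values were taken with no pseudocount. Of 45101 probe sets, 64 controls were left out and 45037 tested, of which 34945 had 1 gene symbol. The brightest probe set over the 12 arrays represented each of 18193 genes. The number of arrays limits the precision.

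Linear models were fitted to the 6 arrays of each experiment in R 4.3.3 with limma 3.58.1 (lmFit, then eBayes, two-sided, Benjamini-Hochberg), after a test on simulated data. Python 3.11.15 with pandas 2.3.3 made the tables. All 25 probe sets were described, and of each list of related genes up to 6 called members with the largest rapamycin change and the largest opposite one could be named. The members, lists and tests were chosen with earlier results of these data known. Alternatives were a pseudocount of 32, a filter at the median level, an intensity trend with robust fitting, all 12 arrays in 1 fit, quantile normalisation over 12 arrays, equal control transcripts (9 probe sets), a replicate block, and leaving out each replicate.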

Additional observations from a re-analysis of the deposited data

Results flagged for a closer look

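For 5 probe sets the rapamycin change and the PGC-1alpha change differed in the limma fit of all 12 arrays. The share called in either direction was 20.0% of the 25, against 20.7% of all probe sets. Dusp6 (0.42 on the log2 scale) and the brighter Spry2 probe set (0.54) were higher with rapamycin and had no called change with PGC-1alpha. Probe set 1423162_s_at of Spred1 differed by 0.33 (SE 0.10, adjusted p = 0.023), a call kept in 8 of the 12 fits that left out 1 culture. The Spred2 probe sets differed in opposite directions: 1434403_at by -0.32 (SE 0.10, adjusted p = 0.027), kept in 7 of 12 such fits, and 1436892_at by 0.41 (SE 0.10, adjusted p = 0.0062), kept in 12 of 12. With equal control transcripts, 1434403_at remained called (-0.62, adjusted p = 0.0017), and the other 4 did not, at 0.12 for Dusp6, 0.24 for Spry2, 0.03 for Spred1 and 0.11 for 1436892_at of Spred2.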

How the results depend on the processing

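Over all alternatives, 286 rapamycin values of single member probe sets kept their side of the threshold, 16 gained a call and 14 lost one. For PGC-1alpha the counts were 307, 5 and 6, and for the difference of effects 419, 9 and 15, and no called value changed sign. The cause of the shifts below was not tested. With equal control transcripts, rapamycin raised 1654 probe sets and lowered 13874, raised 2 and lowered 3 member probe sets, and raised 2 and lowered 1 member genes; PGC-1alpha raised 249 and lowered 38 probe sets and lowered 0 member probe sets; the difference passed above 0 for 512 and below 0 for 10922 probe sets, of which 0 and 4 were members. Quantile normalisation over 12 arrays gave 7 member genes raised and 1 member probe set lowered by rapamycin, and for the difference 7 member probe sets above and 0 below 0. One fit of all 12 arrays gave 6185 probe sets lowered by rapamycin, 1 of them a member. For PGC-1alpha, that fit gave 807 probe sets raised, 678 lowered and 1 member raised. A pseudocount of 32 left 183 probe sets raised, 203 lowered and 0 members lowered by PGC-1alpha, and the median-level filter gave 1 member raised.

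Leaving out each replicate in turn gave 6 to 9 member probe sets raised and 0 to 1 lowered by rapamycin. The lowered one came without rapamycin replicate 2. Of all 45037 probe sets, 3947 to 5001 were raised and 5148 to 6691 lowered in these fits. By brightest probe set, 3 to 5 member genes were raised and 0 to 1 lowered, and shares of all genes were not counted there. For PGC-1alpha, leaving out each replicate gave 113 to 1957 probe sets raised and 166 to 880 lowered, the upper ends without GFP replicate 3. There 0 to 3 member probe sets were raised, 0 to 1 lowered and 0 to 1 member genes raised. For the difference, leaving out each replicate gave 0 to 1 member probe sets below 0, against 4558 to 6465 of all probe sets. With the replicate block, the paired fit gave 5128 raised and 6243 lowered for rapamycin, 436 and 395 for PGC-1alpha, and changed no member call. Same-numbered cultures correlated between -0.052 and 0.072 and between -0.133 and 0.231 in their deviations from group means. With 3 cultures per group these correlations cannot decide whether such cultures were made together, and the sample titles give only a number.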

Other observations

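Transcripts of proteins that bind AU-rich elements in the tails of short-lived mRNAs, a class that includes many immediate early transcripts, changed in both directions. Of 6 such genes 2 rose and 3 fell with rapamycin, against 11.3% and 18.0% of all genes. Zfp36, which encodes the decay factor tristetraprolin, rose by 0.35 (limma adjusted p = 0.00095), and Zfp36l1 rose by 0.31. Their relative Zfp36l2 fell by 0.46 on the log2 scale, reading 1224, 1403 and 1196 in rapamycin cells, against 1730, 1749 and 1765 in vehicle cells. Hnrnpd (-0.47) and Elavl1 (-0.39), which encode the binding proteins AUF1 and HuR, fell as well. With equal control transcripts 0 of the 6 were raised and 4 were lowered, against 3.83% and 35.8% of all genes.

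With PGC-1alpha, Zfp36l1 was the 1 gene of the 6 that passed, and it fell (-0.36, limma adjusted p = 0.019), reading 1268, 1227 and 1268 in PGC-1alpha cells, against 1492, 1583 and 1777 in GFP cells. Its value was -0.22 (adjusted p = 0.64) with equal control transcripts, where 0 of the 6 passed. The part of these genes in the changes of the feedback genes was not tested.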
